A study of Homo sapiens with 6 samples.

Results

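The 10 genes described here encode Notch receptors (NOTCH1, NOTCH2, NOTCH3 and NOTCH4), Notch ligands (JAG1, JAG2 and DLL1) and targets of Notch signaling (HES1, HEY1 and HEY2). They were taken by gene symbol from a list drawn up with earlier results of these data known, and each symbol matched 1 of the 60504 rows of the gene table. RNA-seq was performed on WM164, a human melanoma cell line with the BRAF V600E mutation. Cells carried an empty expression vector (EV, 3 libraries) or an HDAC8 expression vector (HDAC8, 3 libraries), were transfected with plasmid and were kept in hygromycin. HDAC8 is a class I histone deacetylase. The sources used here do not say whether each culture was a clone or a pool, nor that the libraries came from separate cultures. The p-values therefore set group differences against the spread between these libraries, which may be technical.

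Notch signaling passes between neighboring cells. A ligand of the Jagged or Delta-like family on 1 cell binds a Notch receptor on the next, ADAM proteases and then the gamma-secretase complex cut the receptor, and its intracellular part enters the nucleus. There it joins the DNA-binding protein RBPJ and a Mastermind-like coactivator and switches on target genes, among them several HES and HEY genes, whose products are transcriptional repressors. In melanocytes the pathway is known for maintaining melanoblasts and melanocyte stem cells, and in melanoma for links to growth and invasion.

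The promoters of HES1, HEY2, NOTCH1 and JAG1 are shown because HES1 is the textbook RBPJ target and the other 3 genes rose in the HDAC8 libraries. The sequences are the 250 bases before the RefSeq transcription start (GRCh38.p14), written 5′ to 3′ on the strand of the gene. Capitals mark the RBPJ core TGGGAA or its other strand TTCCCA. HES1 lies at chr3:194135898-194136147 (plus strand), HEY2 at chr6:125749382-125749631 (plus strand), NOTCH1 at chr9:136546049-136546298 (minus strand) and JAG1 at chr20:10674000-10674249 (minus strand). In GENCODE the HEY2 window lies in an intron of a longer HEY2 transcript, and the NOTCH1 window also holds MIR4674 and, on the opposite strand, an exon of the lncRNA NALT1.
HES1: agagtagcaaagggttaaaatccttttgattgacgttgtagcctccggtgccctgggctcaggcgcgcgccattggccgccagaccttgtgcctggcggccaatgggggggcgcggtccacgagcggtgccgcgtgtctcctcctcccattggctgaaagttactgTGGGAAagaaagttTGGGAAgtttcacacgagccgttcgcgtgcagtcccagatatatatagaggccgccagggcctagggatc
HEY2: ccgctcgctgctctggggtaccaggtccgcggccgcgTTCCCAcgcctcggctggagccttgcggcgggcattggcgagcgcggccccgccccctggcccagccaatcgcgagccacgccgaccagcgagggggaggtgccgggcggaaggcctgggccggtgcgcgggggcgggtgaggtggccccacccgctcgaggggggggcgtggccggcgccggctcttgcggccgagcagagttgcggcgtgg
NOTCH1: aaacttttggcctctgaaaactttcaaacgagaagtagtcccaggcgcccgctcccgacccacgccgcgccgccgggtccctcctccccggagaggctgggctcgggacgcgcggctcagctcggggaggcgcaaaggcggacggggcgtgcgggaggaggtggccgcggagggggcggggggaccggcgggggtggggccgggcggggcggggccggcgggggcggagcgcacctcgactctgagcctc
JAG1: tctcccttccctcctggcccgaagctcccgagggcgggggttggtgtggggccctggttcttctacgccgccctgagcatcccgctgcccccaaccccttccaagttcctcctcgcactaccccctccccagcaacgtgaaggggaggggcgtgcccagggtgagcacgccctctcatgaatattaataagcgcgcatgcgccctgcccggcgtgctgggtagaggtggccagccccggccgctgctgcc

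HES1 held 2 RBPJ cores in the same orientation, at 84 to 79 and 70 to 65 bases before the start. HEY2 held 1, on the other strand, at 213 to 208 bases before the start. The windows of NOTCH1 and JAG1 held none, nor did those of NOTCH2, NOTCH3, NOTCH4 and JAG2. Across 35114 RefSeq promoter windows of the same length, 20.8% held the core on either strand. HES1 also held 4 matches to CACGNG or its other strand CNCGTG, a form of site bound by HES and HEY proteins, which 26.7% of the windows held. JAG2 held 2 such matches and NOTCH3 held 1, and the other 5 members scanned held none. HEY1 and DLL1 had no window in the RefSeq set used and were not scanned. Of the 8 members scanned, NOTCH4 alone held the AP-1 motif TGANTCA, which reads the same on both strands (6.57% of all windows). None of the 8 held the TEAD motif GGAATG or its other strand CATTCC (11.9%). GC content was 76% for NOTCH1, 79.2% for HEY2, 68.4% for JAG1 and 59.2% for HES1, against a median of 58% over all windows. It was 81.6% for JAG2, 78% for NOTCH3, 72.8% for NOTCH2 and 58% for NOTCH4, so high GC was not particular to the genes that rose. A match to these letters does not show that a factor binds there.

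Total counts per library ran from 34953618 to 42041462 in EV and from 34741083 to 41852045 in HDAC8. The HDAC8 transcript itself had 383.8 to 478.8 normalized counts in EV and 445.5 to 484.8 in HDAC8, so the groups overlapped and the transcript does not check the labels. Normalized counts are counts divided by the DESeq2 size factor of the library. HDAC8 1 differed more from its group than the others did: chi-square over degrees of freedom across genes was 153 against HDAC8 2 and 102 against HDAC8 3, and 26 between those 2 libraries. Mitochondrial transcripts took 9.66% to 12.8% of the counts in EV and 4.46% to 7.94% in HDAC8. The melanocyte markers MITF, SOX10, PMEL, TYR and DCT were present in all libraries, while TYRP1 had at most 62.9 normalized counts. The summed level of the 7 melanocytic markers was 243744 to 327504 in EV and 136368 to 181340 in HDAC8, mostly PMEL, and 4 of the 7 fell. MLANA had the largest change among them, from 8665 ± 367 to 303 ± 67.8 normalized counts (SD, n = 3). Of the 6 fibroblast markers none was called, with sums of 2366 to 2869 in EV and 1150 to 2188 in HDAC8, mostly LUM, and DCN was at 0. The 5 leukocyte markers summed to 2301 to 3302 in EV and 4273 to 6165 in HDAC8, mostly CD68. CD68 and CD3E were called higher, while PTPRC had reads in HDAC8 1 alone, at 2.57 normalized counts. CD3E was at 0 in every EV library and at 50.1 to 91.1 normalized counts in HDAC8. Sums of the 5 endothelial markers (97.5 to 203 and 123 to 263, CDH5 at 0) and the 5 keratinocyte markers (162.5 to 303 and 166 to 176, KRT1 at 0) overlapped. The part of these marker and mitochondrial differences in the results below was not tested. In bulk RNA, more cells with a transcript and more transcript per cell cannot be told apart.

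To determine which Notch genes differed between HDAC8 and EV cells, genes were fitted together where their counts summed to 10 or more over the 6 libraries. A call needed a DESeq2 adjusted p under 0.05 and a log2 fold change of 0.58 or more in either direction. Of the 10 members, NOTCH1, JAG1 and HEY2 rose in HDAC8 and none fell. NOTCH2, NOTCH3, NOTCH4, JAG2, HES1 and HEY1 were not called, and DLL1 had too few reads to be tested. The 3 calls were among 9 members with an adjusted p, or 33.3%, where 5.57% of all 21021 genes with an adjusted p were called higher and 5.44% lower. The libraries of the groups did not overlap for 5 of the 9 (NOTCH1, NOTCH2, JAG1 and HEY2 above EV, HEY1 below), where 24% of all genes tested did not overlap, 11.3% with HDAC8 above and 12.7% with HDAC8 below. The median log2 fold change was 0.88 over these 9 members and -0.00 over all genes with an adjusted p.

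**Figure D1:**
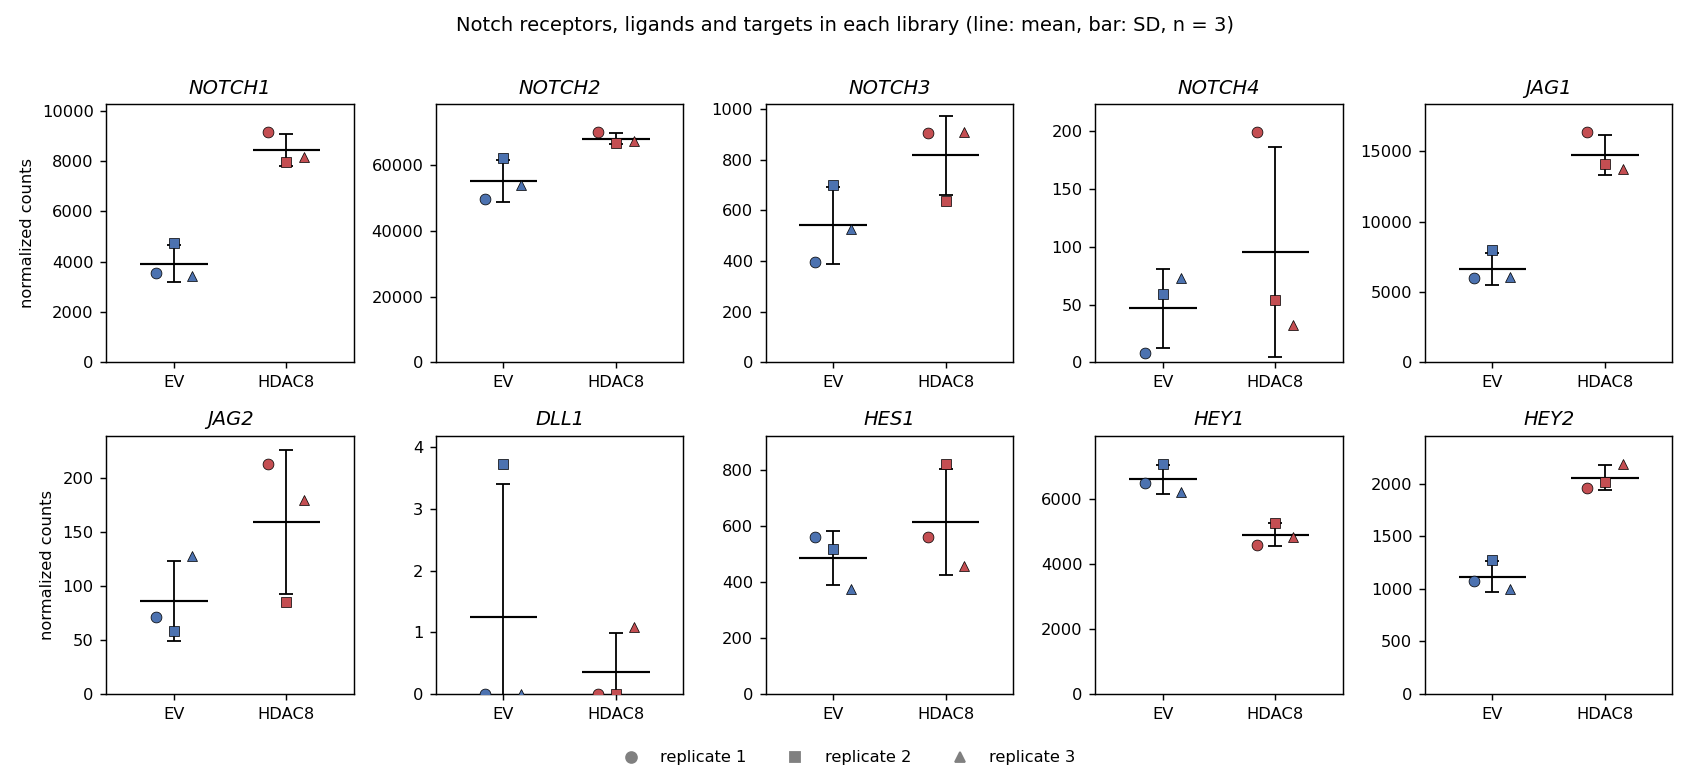
Normalized counts of the 10 members in each library, with 1 panel per gene, its own linear axis from 0, points for the libraries (shape for the replicate number), a line for the mean and a bar for the SD (n = 3, cut at 0 where it would be negative). The groups of NOTCH1, NOTCH2, JAG1 and HEY2 are separate with HDAC8 above EV, those of HEY1 are separate with HDAC8 below EV, and the other 5 genes overlap.

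Receptors were examined first, with gene positions on GRCh38 from GENCODE. NOTCH1 (ENSG00000148400, chromosome 9, 136494433 to 136546048, minus strand) is the receptor best known from T cell development and leukemia. It had 3555, 4762 and 3431 normalized counts in EV 1, 2 and 3 and 9157, 7986 and 8173 in HDAC8 1, 2 and 3. Every HDAC8 library lay above every EV library, and the lowest of them was 7986 against a highest EV value of 4762. The mean rose from 3916 ± 735 to 8439 ± 629 (SD, n = 3), a fold change of 2.15 (95% interval 1.73 to 2.69, log2 fold change 1.11 with SE 0.16, DESeq2 adjusted p = 6.16e-10). This log2 fold change was above that of 89.4% of the genes with an adjusted p.

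NOTCH2 (ENSG00000134250, chromosome 1, 119911553 to 120100779, minus strand) is the receptor gene with the most reads in these cells. It had 49519, 61921 and 53794 normalized counts in EV 1, 2 and 3 and 69922.5, 66718 and 67090.4 in HDAC8 1, 2 and 3. The groups did not overlap. The means were 55078 ± 6299.7 and 67910.4 ± 1752 (SD, n = 3), a fold change of 1.23 (95% interval 1.04 to 1.46, DESeq2 adjusted p = 0.0964), which met neither threshold. NOTCH2 has near-identical partial copies, the NOTCH2NL genes, with which reads could be shared in the expected counts. How many reads were shared was not examined. The copy listed in the table, NOTCH2NLA, had means of 1863 ± 193 in EV and 1559 ± 207 in HDAC8 (SD, n = 3) and was not called (log2 fold change -0.26, DESeq2 adjusted p = 0.473).

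NOTCH3 (ENSG00000074181, chromosome 19, 15159038 to 15200995, minus strand) is best known from pericytes and vascular smooth muscle. It had 397, 700 and 526 normalized counts in EV 1, 2 and 3 and 906, 636 and 908 in HDAC8 1, 2 and 3. EV 2 lay above HDAC8 2, so the groups overlapped. The fold change was 1.51 (95% interval 1.02 to 2.24, log2 fold change 0.59, DESeq2 adjusted p = 0.185), and the gene was not called.

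NOTCH4 (ENSG00000204301, chromosome 6, 32194843 to 32224067, minus strand) is best known from endothelium. It had 8.39, 58.8 and 72.9 normalized counts in EV 1, 2 and 3 and 199, 54.3 and 32.7 in HDAC8 1, 2 and 3. HDAC8 1 stood above all the others, while the remaining HDAC8 libraries lay below EV 2 and EV 3. The log2 fold change of 1.03 had a 95% interval from -0.75 to 2.81 (DESeq2 adjusted p = 0.578). Without HDAC8 1 it was -0.11, so its direction rested on that library. An exon of NOTCH4 overlaps 1 of GPSM3 on the same strand in the annotation, so reads there could belong to either gene.

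Because NOTCH receptor transcripts differ in length, receptors were compared as counts per kilobase of the canonical transcript. NOTCH2 made up 91.2%, 90.2% and 91.6% of the summed NOTCH1 to NOTCH4 level in EV 1, 2 and 3 and 84.9%, 86.4% and 85.9% in HDAC8 1, 2 and 3. NOTCH1 made up 7.82%, 8.29% and 6.98% in EV and 13.3%, 12.4% and 12.5% in HDAC8. Thus NOTCH2 was the main receptor transcript in every library, and the share of NOTCH1 was higher in each HDAC8 library than in each EV library. The mean share of NOTCH1 differed by 5.01 percentage points (7.69 ± 0.662 and 12.7 ± 0.494, SD, n = 3) and that of NOTCH2 by -5.28 (91.0 ± 0.719 and 85.7 ± 0.797, SD, n = 3). For each the two-sided exact permutation p was 0.1, the smallest that 3 against 3 libraries allow. This separation had to follow from the NOTCH1 and NOTCH2 counts given above, so the p adds no support beyond them. Because NOTCH1 and NOTCH2 made up nearly the whole sum, the NOTCH2 share mirrors the NOTCH1 share and is not a separate result. The normalized counts of NOTCH2 itself were not lower in HDAC8. NOTCH3 (1.16% and 1.35%, exact permutation p = 0.3) and NOTCH4 (0.127% and 0.200%, exact permutation p = 0.7) overlapped between the groups, and without HDAC8 1 the NOTCH4 difference was -0.032 percentage points. These shares need no scaling between libraries.

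**Figure D2:**
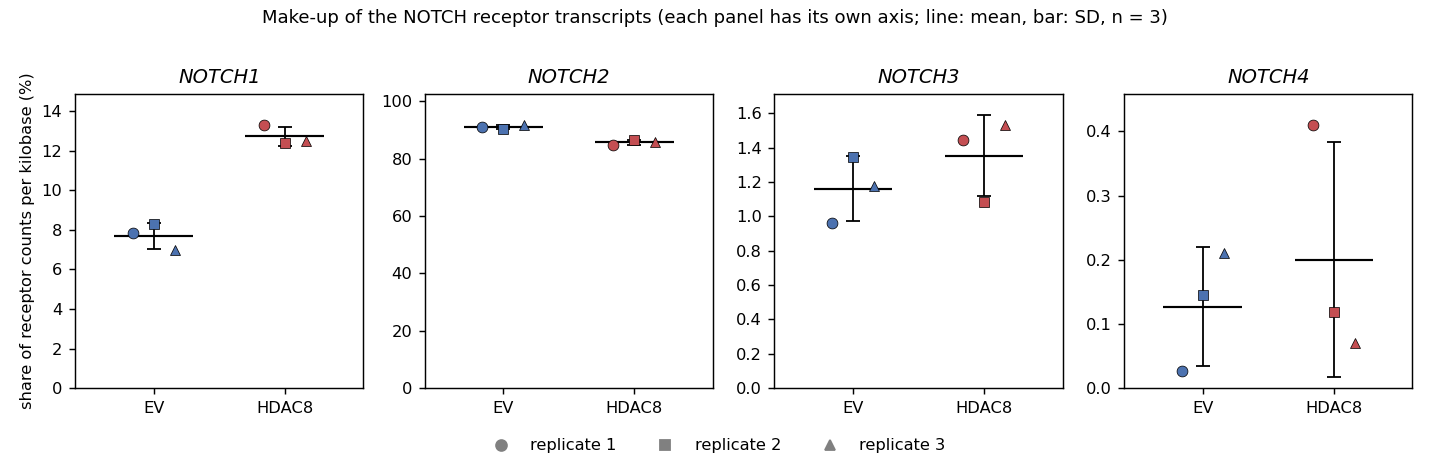
Share of each receptor in the summed counts per kilobase of NOTCH1 to NOTCH4 (percent), with 1 panel per receptor and its own axis from 0, points for the libraries, a line for the mean and a bar for the SD (n = 3). NOTCH1 lies between 6.98% and 8.29% in EV and between 12.4% and 13.3% in HDAC8, while NOTCH2 is above 84% in every library.

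Ligands were examined next. JAG1 (ENSG00000101384, chromosome 20, 10637684 to 10673999, minus strand) encodes a Jagged ligand that is mutated in Alagille syndrome. It had 5968, 7980.5 and 6038 normalized counts in EV 1, 2 and 3 and 16372, 14093 and 13762 in HDAC8 1, 2 and 3. The groups were far apart, and the lowest HDAC8 library had 13762 against 7980.5 in the highest EV library. The mean rose from 6662 ± 1142 to 14742.6 ± 1421 (SD, n = 3), a fold change of 2.21 (95% interval 1.80 to 2.73, log2 fold change 1.15 with SE 0.15, DESeq2 adjusted p = 9.82e-12). This was the member with the lowest adjusted p. An exon of a lncRNA (ENSG00000270792, mean of 5.52 normalized counts) overlaps JAG1 on the opposite strand.

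JAG2 (ENSG00000184916, chromosome 14, 105140982 to 105168824, minus strand), the other Jagged ligand, had far fewer reads. Its normalized counts were 71.3, 58.8 and 128 in EV 1, 2 and 3 and 214, 85.0 and 180 in HDAC8 1, 2 and 3. HDAC8 2 lay below EV 3, so the groups overlapped. The fold change of 1.85 had a 95% interval from 0.836 to 4.11 (DESeq2 adjusted p = 0.39), so neither no change nor a rise as large as that of JAG1 lay outside it.

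DLL1 (ENSG00000198719, chromosome 6, 170282206 to 170306565, minus strand) encodes a Delta-like ligand. It had 4 counts in EV 2, 1 count in HDAC8 3 and none in the other libraries, 5 in all. Counts were at or under the floor of 3 in 2 EV libraries and in all 3 HDAC8 libraries, and the floor equals a normalized value of 2.57 to 3.27 across libraries. A difference in DLL1 was therefore not detectable at this depth, and no fold change is given. An exon of FAM120B, on the opposite strand, overlaps DLL1.

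JAG1 and NOTCH1 kept nearly the same ratio. Per kilobase, JAG1 was 2.7, 2.7 and 2.83 times NOTCH1 in EV 1, 2 and 3 and 2.88, 2.84 and 2.71 times in HDAC8 1, 2 and 3. The log2 ratio differed by 0.03 between the groups, which overlapped (1.46 ± 0.0400 and 1.49 ± 0.0455, SD, n = 3, two-sided exact permutation p = 0.2). EV 2 was the highest EV library for JAG1, NOTCH1, NOTCH2, NOTCH3, HEY1 and HEY2 alike.

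Targets were examined last. HEY2 (ENSG00000135547, chromosome 6, 125747664 to 125761269, plus strand) encodes a repressor of the Hairy-related family known from heart and artery development. It had 1071, 1278 and 997 normalized counts in EV 1, 2 and 3 and 1959.8, 2021 and 2192 in HDAC8 1, 2 and 3. All 3 HDAC8 libraries lay above the EV libraries. The mean rose from 1115 ± 146 to 2058 ± 120.4 (SD, n = 3), a fold change of 1.84 (95% interval 1.43 to 2.38, log2 fold change 0.88 with SE 0.19, DESeq2 adjusted p = 7.01e-05).

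HEY1 (ENSG00000164683, chromosome 8), the closest relative of HEY2, went the other way by less than the fold change minimum. It had 6499, 7102 and 6237 normalized counts in EV 1, 2 and 3 and 4577, 5278 and 4850.2 in HDAC8 1, 2 and 3. Each HDAC8 library lay below each EV library. The means were 6613 ± 443 and 4902 ± 353 (SD, n = 3), a fold change of 0.741 (95% interval 0.614 to 0.895, log2 fold change -0.43, SE 0.14). Its DESeq2 adjusted p of 0.0188 passed the p threshold, but HEY1 was not called. Across 13 alternatives its adjusted p ran from 0.00978 to 0.116, with edgeR's quasi-likelihood test at 0.0818.

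HES1 (ENSG00000114315, chromosome 3, 194136148 to 194138732, plus strand), whose promoter with 2 RBPJ cores is shown above, encodes a repressor that is widely read as a sign of Notch activity. It had 559, 517 and 374 normalized counts in EV 1, 2 and 3 and 561, 821 and 455 in HDAC8 1, 2 and 3. HDAC8 2 was high and HDAC8 3 lay below EV 1 and EV 2, so the groups overlapped. The means were 484 ± 96.8 and 612 ± 188 (SD, n = 3), a fold change of 1.27 (log2 fold change 0.34, DESeq2 adjusted p = 0.603) with a 95% interval of 0.827 to 1.94. Without HDAC8 2 the log2 fold change was 0.08. The coefficient of variation was 20.0% in EV and 30.8% in HDAC8, against medians of 12.2% and 16.2% over the 7279 genes with a mean of 500 to 5000 normalized counts. A change in HES1 of the size seen in HEY2 lay within its interval.

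**Figure D3:**
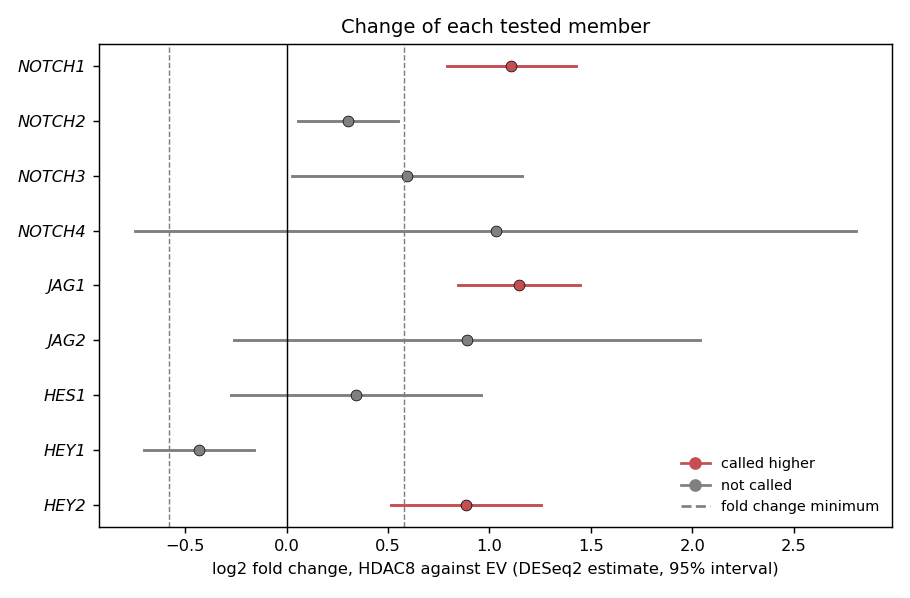
DESeq2 log2 fold change of HDAC8 against EV for the 9 tested members (points) with 95% intervals (lines), colored by call, and dashed lines at the fold change minimum of 0.58 in either direction. The intervals of NOTCH1 and JAG1 lie above 0.58, that of HEY2 starts at 0.52, that of HEY1 lies below 0, and those of NOTCH4, JAG2 and HES1 cross 0.

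The balance between the targets was compared within each library, so that no scaling entered. Per kilobase, HEY2 was 0.138, 0.151 and 0.134 times HEY1 in EV 1, 2 and 3 and 0.358, 0.320 and 0.378 times in HDAC8 1, 2 and 3. The lowest HDAC8 ratio was above the highest EV ratio. This had to follow, since HEY2 lay above and HEY1 below every EV library in each HDAC8 library. The log2 ratio was higher by 1.32 in HDAC8 (-2.83 ± 0.0886 and -1.51 ± 0.122, SD, n = 3). Its two-sided exact permutation p of 0.1, the smallest possible here, was therefore fixed by those values and adds no support. Ratios between members were not among the planned tests. The ratio of HES1 to HEY1 was 0.120, 0.102 and 0.0837 in EV and 0.171, 0.217 and 0.131 in HDAC8, again without overlap (exact permutation p = 0.1). HEY1 was lower in each HDAC8 library, while HES1 itself overlapped between the groups, so this ratio does not show a change in HES1. HEY1 remained the main target transcript of the 3 in every library.

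**Figure D4:**
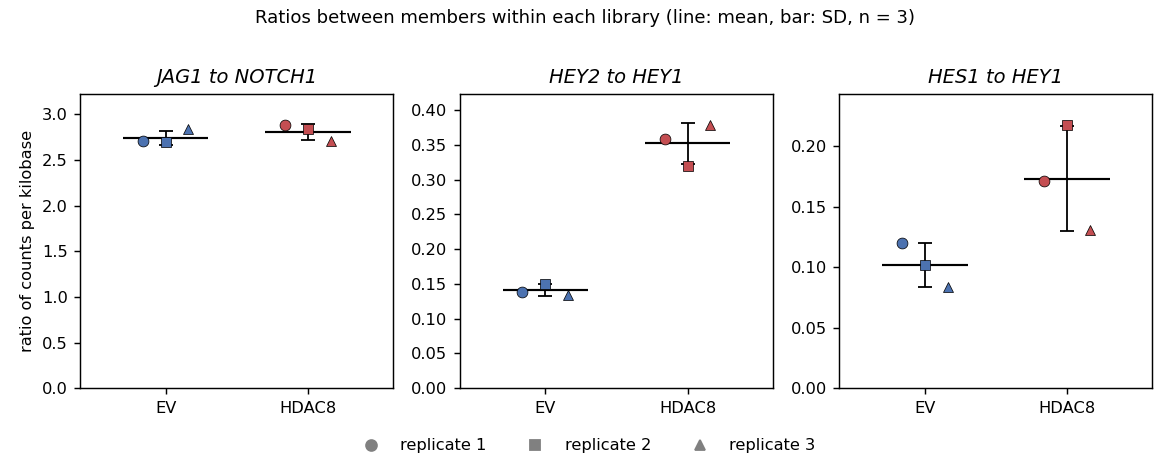
Ratios of counts per kilobase between members in each library, with 1 panel per ratio and its own axis from 0, points for the libraries, a line for the mean and a bar for the SD (n = 3). The ratio of JAG1 to NOTCH1 is between 2.7 and 2.88 in all libraries, while that of HEY2 to HEY1 is at most 0.151 in EV and at least 0.320 in HDAC8.

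Levels of all 10 members were ordered by normalized counts per kilobase. In EV the order was NOTCH2 (4821 ± 551), HEY1 (3010 ± 202), JAG1 (1122 ± 192), HEY2 (425 ± 55.4), NOTCH1 (409 ± 76.9), HES1 (307 ± 61.5), NOTCH3 (62.4 ± 17.5), JAG2 (14.9 ± 6.39), NOTCH4 (6.92 ± 5.03) and DLL1 (0.330 ± 0.571), as mean ± SD with n = 3. Among neighbors in this order, HEY2 and NOTCH1 overlapped between libraries, as did JAG2 and NOTCH4. In HDAC8 the order was NOTCH2 (5944 ± 153), JAG1 (2482 ± 239), HEY1 (2231 ± 161), NOTCH1 (882 ± 65.7), HEY2 (784 ± 45.9), HES1 (389 ± 120), NOTCH3 (94.1 ± 18.0), JAG2 (27.6 ± 11.6), NOTCH4 (14.1 ± 13.4) and DLL1 (0.096 ± 0.166). JAG1 and HEY1 overlapped there, as did NOTCH1 and HEY2, and JAG2 and NOTCH4. JAG1 was thus below HEY1 in all EV libraries and not separable from it in HDAC8.

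The rest of the pathway was then examined with a list of 61 further Notch pathway genes in 8 role groups. Of these, 57 were tested and 54 had an adjusted p, of which 5 rose and 3 fell. These 8 calls are 14.8% of the 54, against 11% of all genes, so the list as a whole was called about as often as other genes. The median log2 fold change was 0.14, against -0.00 over all genes. DLK1, HES5, HEYL and NRARP had no count in any library.

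Nuclear complex genes rose in 2 of 9 cases and none fell in the DESeq2 fit. That is 22.2% called, against 11% of all genes. RBPJ (chromosome 4, 26163455 to 26435131), the DNA-binding protein of the pathway, had 3888, 3294 and 4103 normalized counts in EV 1, 2 and 3 and 4409.6, 7598 and 5845.5 in HDAC8 1, 2 and 3, that is, log2 fold change 0.66 with SE 0.19 and DESeq2 adjusted p = 0.00794. HDAC8 1 lay close to EV 3, and RBPJ was not called without HDAC8 2 (0.45, DESeq2 adjusted p = 0.093) or without EV 2 (0.57, DESeq2 adjusted p = 0.0705). MAML3, a Mastermind-like coactivator, rose from 520.1 ± 37.6 to 898 ± 80.0 normalized counts (SD, n = 3, log2 fold change 0.79, DESeq2 adjusted p = 0.0102). MAML3 was not called without EV 1, EV 3 or HDAC8 3 (DESeq2 adjusted p = 0.052, 0.0921 and 0.112), nor with the replicate block (0.0528). Its log2 fold change in those fits was 0.71 to 0.81. An exon of MGST2 (mean of 820 normalized counts) overlaps MAML3 on the opposite strand. Because use of strand is not given, reads there could belong to either gene. The acetyltransferase KAT2B had 1981, 1684 and 2101 normalized counts in EV 1, 2 and 3 and 699, 1680 and 1160 in HDAC8 1, 2 and 3, with no overlap, and was not called (log2 fold change -0.71, DESeq2 adjusted p = 0.0642). In 4 alternatives KAT2B was called lower: edgeR, limma-voom, the filter of 10 counts per library, and without HDAC8 2. Of the other genes not called, the acetyltransferase EP300 had the most reads (19052 ± 2010.4 and 18397 ± 1162, SD, n = 3, log2 fold change -0.05, DESeq2 adjusted p = 0.907).

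Corepressor genes moved in both directions, with 25% of 12 called against 11% of all genes. TLE1 and TLE3, Groucho-type corepressors recruited by HES proteins, rose, and their relative TLE2 fell, while TLE4 was not called (log2 fold change 0.05, DESeq2 adjusted p = 0.962). TLE1 had 1304.5, 1369 and 1455 normalized counts in EV 1, 2 and 3 and 2395, 2444 and 2601.5 in HDAC8 1, 2 and 3 (log2 fold change 0.85, DESeq2 adjusted p = 1.13e-05). TLE3 had 3479, 4311 and 3286 in EV and 6311, 5572 and 5972 in HDAC8 (log2 fold change 0.69, DESeq2 adjusted p = 2.26e-04). TLE2 had 475, 542 and 415 in EV and 157, 211 and 140.5 in HDAC8 (log2 fold change -1.49, DESeq2 adjusted p = 3.19e-04). The groups of these 3 genes did not overlap, and each was called in all 13 alternatives. The remaining 9 of 12 corepressor genes were not called, including SPEN, the one with the most reads (log2 fold change 0.05, DESeq2 adjusted p = 0.888), HDAC1 (0.13, DESeq2 adjusted p = 0.704) and HDAC2 (-0.25, DESeq2 adjusted p = 0.385).

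Among the other HES genes, HES4, a relative of HES1, rose from 31.5, 71.0 and 42.4 normalized counts in EV 1, 2 and 3 to 203, 138 and 168 in HDAC8 1, 2 and 3 (log2 fold change 1.81 with SE 0.58, DESeq2 adjusted p = 0.0172). Its groups did not overlap, but its counts were low. It was not called by edgeR's quasi-likelihood test (0.0522) or limma-voom (0.0658), nor without EV 1, EV 3, HDAC8 1 or HDAC8 3 (DESeq2 adjusted p = 0.109, 0.0852, 0.0821 and 0.0935). In those fits its log2 fold change was 1.58 to 1.86. HES6, which counters HES1 in neural differentiation, fell from 761, 1132 and 770.4 in EV to 672, 276 and 216 in HDAC8 (log2 fold change -1.19, DESeq2 adjusted p = 0.0184). HDAC8 1 lay near the EV libraries, and HES6 was not called without EV 2, HDAC8 2 or HDAC8 3 (DESeq2 adjusted p = 0.177, 0.0867 and 0.133). HES7 was not called (log2 fold change 0.56, DESeq2 adjusted p = 0.735), and HES2 had no adjusted p.

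Cleavage genes showed 1 call among 8, a fall, or 12.5% called against 11% of all genes. PSEN2, a gamma-secretase subunit, had 1547, 1817 and 1611 normalized counts in EV 1, 2 and 3 and 1341, 659.6 and 961.5 in HDAC8 1, 2 and 3 (log2 fold change -0.75 with SE 0.25, DESeq2 adjusted p = 0.0291). The call was lost without EV 1, EV 2, EV 3, HDAC8 2 or HDAC8 3 (DESeq2 adjusted p = 0.0852, 0.149, 0.101, 0.124 and 0.112) and with size factors from total counts (0.0603). The protease ADAM10, the cleavage gene with the most reads, was not called (log2 fold change 0.24, DESeq2 adjusted p = 0.333). An exon of another annotated gene overlaps PSEN2 on the same strand.

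Receptor maturation and glycosylation genes, ligand and receptor endocytosis genes, other ligands, and genes for turnover of the cleaved receptor had no call in the DESeq2 fit. FURIN, which cleaves Notch receptors on their way to the surface, had 6570 ± 1248 and 9453 ± 1081 normalized counts (SD, n = 3) without overlap, and its log2 fold change of 0.52 was under the minimum (DESeq2 adjusted p = 0.0152). FURIN was called higher in 2 alternatives, without EV 2 and without HDAC8 2, while DTX1 (with the filter of 10 counts per library) and CCNC (without HDAC8 2) were each called lower in 1. The ubiquitin ligase ITCH (log2 fold change -0.35, DESeq2 adjusted p = 0.156), the ligand DLL3 (1.09, DESeq2 adjusted p = 0.256) and FBXW7, which targets cleaved Notch for degradation (-0.23, DESeq2 adjusted p = 0.588), were the genes with the most reads in the other 3 groups. Over the 3 turnover genes the median log2 fold change was -0.23, and none was called. CCNC was at -0.53 (DESeq2 adjusted p = 0.185), while CDK8 had an estimate of -0.01 with overlapping libraries (DESeq2 adjusted p = 0.988).

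**Figure D5:**
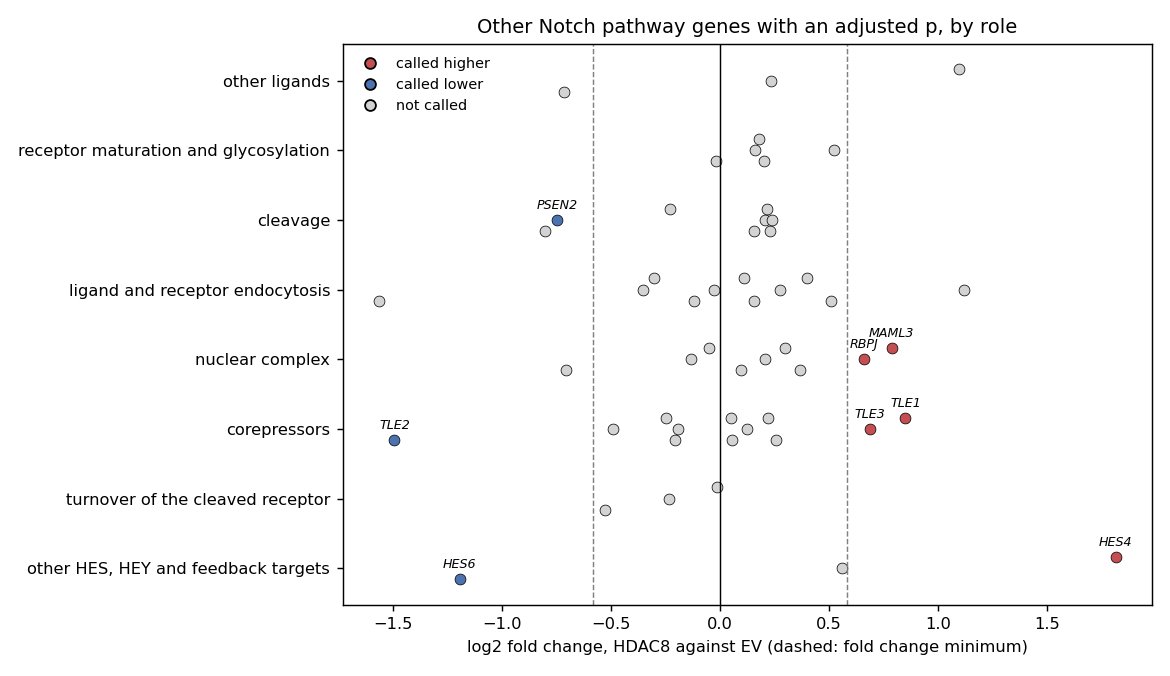
DESeq2 log2 fold change of HDAC8 against EV for the 54 other Notch pathway genes with an adjusted p, in rows by role, colored by call (points are spread vertically within a row for legibility), with dashed lines at the fold change minimum of 0.58. RBPJ, MAML3, TLE1, TLE3 and HES4 were called higher and PSEN2, TLE2 and HES6 lower, while most genes lie within the dashed lines.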

How the data were processed

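RNA was sequenced from WM164 cells with an empty vector (3 libraries) or an HDAC8 expression vector (3 libraries). Per the labels and the study's methods, paired-end reads were trimmed (Trimmomatic) and mapped against transcripts (STAR) by the authors, who then estimated expected counts per gene with RSEM. The deposited expected counts were not scaled between libraries. Genome build, annotation release and use of strand are not given in the sources used here, and the labels and the methods name different RNA extraction kits.

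Expected counts were rounded to whole numbers and tested in R 4.3.3 by DESeq2 1.42.0 (Wald test, two-sided, median-of-ratios size factors, group as the sole term, Benjamini-Hochberg adjustment). The 26162 genes whose counts summed to 10 or more were fitted. DESeq2 gave no adjusted p for 5141 genes, which stayed out of counts of calls. Intervals are at the 95% level and use the DESeq2 standard error. The floor of 3 counts covers counting error only. Positions and canonical transcript lengths were taken from GENCODE release 44 (GRCh38) by Ensembl identifier. Promoters were RefSeq windows.

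The members and lists were chosen with earlier results of these data known. All members were named, with each called pathway gene, the uncalled gene with the most reads in each role group and NOTCH2NL copies. Other genes were named to complete a family or comparison after their values were seen. Alternatives were edgeR 4.0.16, limma-voom (limma 3.58.1), other size factors and filters, a replicate block, no fold change minimum and each library left out. Scripts were tested on simulated data. No library was a repeat of another, since chi-square per degree of freedom was 26 or more within each group.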

Additional observations from a re-analysis of the deposited data

How the results depend on the processing

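NOTCH1, JAG1 and HEY2 were called higher, and no other member was called, with edgeR's or limma-voom's test, with upper-quartile or total-count scaling, with no count filter or a stricter one, with the replicate block, and without any 1 of the libraries. Their log2 fold changes ran from 1.01 to 1.27, from 1.06 to 1.29 and from 0.80 to 0.99 over the 13 alternatives. Without the fold change minimum 1 member, HEY1, was also called lower. Across fits that each left out a library, NOTCH4 ran from -0.11 (without HDAC8 replicate 1) to 1.5, 877 to 1218 genes of the table were called higher and 746 to 1378 lower, and the pathway list held 3 to 5 higher and 1 to 3 lower genes. With at least 10 counts in every library the pathway list held 5 lower genes, DTX1 and KAT2B in addition, and edgeR and limma-voom each gave 4 higher and 4 lower, KAT2B again among the lower. Replicate numbers gave no sign of pairing the libraries, since the correlations of their deviations from the group means were -0.027, -0.066 and 0.040. This does not show whether libraries of the same number were prepared together. Adding the numbers as a replicate block left 1075 calls higher and 1078 lower in the whole table, the pathway list then held 4 higher and 3 lower genes, and MAML3 lost its call. The NOTCH1 share differed between the groups by 4.37 to 5.45 percentage points with counts not divided by length, with NOTCH2NL counts added to NOTCH2, and with the union of exons as length (chosen after seeing the data), against 5.01 as reported. Depth limits DLL1, and low counts leave NOTCH4 and JAG2 with wide intervals.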
